A study of Homo sapiens with 4 samples.

Results

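The genes described here are the ligands and receptors of the tumour necrosis factor (TNF) superfamilies, in SW480 cells whose level of HOXA5, a homeobox transcription factor, had been altered. Members were the probe sets with a single annotated gene symbol that begins with TNFSF or TNFRSF, or that is one of a short list of family members with other names (TNF, LTA, LTB, FAS, FASLG, CD40, CD40LG, CD70, CD27, EDAR, EDA2R, LTBR, NGFR and RELT). This rule found 91 of the 54613 probe sets that are not controls, and they stand for 46 of 19775 genes. CD40LG had no such probe set and was not analysed here. The 46 genes were 15 ligands, 28 receptors and 3 noncoding RNAs named after a receptor gene.

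SW480 is an established colon cancer cell line, here annotated with tumour stage Duke's type B and grown in serum-containing medium. Per the titles, 2 arrays came from cells with HOXA5 knock down (KD) and 2 from cells overexpressing HOXA5 (OE), and the design text describes the cells as transduced. No untransduced or vector-only arrays were used here, so each difference below is overexpressing minus knock-down and cannot be assigned to either manipulation. The labels name neither the constructs nor the number of clones, and they leave unstated whether the replicates were separate cultures. The p-values therefore measure the spread between these arrays, which may be technical and which the test (limma) pools in part over all genes. HOXA5 itself was not analysed here, so the labels were not checked against the manipulated gene and every direction below rests on them. The series title names HOXA5 as an inhibitor of Wnt signalling. TNFRSF11B and EDAR, which are known as Wnt targets in other tissues, were higher in the arrays labelled as overexpressing. TNFRSF19, known as a Wnt target in the intestine, differed by 0.01 to 0.83 on its 3 probe sets. Whether these genes follow Wnt signalling in these cells was not tested.

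Ligands of the TNF superfamily are mostly trimeric membrane proteins that can be shed, and their receptors cluster around the trimer. Some receptors with a cytoplasmic death domain (among them FAS and the receptors of the ligand TRAIL) can recruit caspases and start apoptosis. Most other receptors recruit TRAF adaptors and activate NF-kB and MAP kinases. Decoy receptors bind a ligand without passing on a full signal. In the intestine these pathways are known for their part in epithelial cell death, mucosal inflammation and contact with immune cells.

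Expression is given as log2 RMA values, and the medians of the 4 arrays lay between 5.77 and 5.81. Over all probe sets, arrays correlated at 0.997 within either group and at 0.991 to 0.993 between groups. The keratins KRT8 and KRT18, which mark simple epithelia, were bright in both groups (log2 means 13.02 and 13.86 in knock-down, 12.91 and 13.82 in overexpressing). Of 10 epithelial markers, 4 rose in the overexpressing arrays and none fell (40% passed, against 4.77% of all genes). The sum of all 10 log2 levels was 74.6 to 75.2 with knock-down and 85.6 to 86.5 with overexpression. Most of that difference came from the adhesion gene EPCAM, which rose by 5.05, and the keratin gene KRT19, which rose by 4.38. CLDN4 and CDX2 rose by 1.26 and 0.51. CDH1 differed by 0.60 with groups apart and just missed the threshold (limma adjusted p = 0.052). The list went both ways: 4 of the 10 lay below 0, with the tight-junction gene CLDN7 lowest at -0.43 (limma adjusted p = 0.069). Whether this epithelial difference plays a part in the results below was not tested. Markers of B cells, myeloid cells, fibroblasts and endothelium did not pass the test (0 of 8, 0 of 8, 0 of 8 and 0 of 7 in limma, with 0, 1, 1 and 1 at an unadjusted p under 0.05). Among 11 T and NK cell markers LCK rose by 0.49 and none fell (9.09% passed, against 4.77% of all genes). The leukocyte gene PTPRC had group means of 3.79 (knock-down) and 3.65 (overexpressing), below the array medians, and the summed level of the T and NK list ran from 58.9 to 59.9 over the 4 arrays.

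Few family genes passed the test, and those that did were receptors that were higher in the overexpressing arrays. With each gene represented by its probe set of highest mean, 4 of the 46 genes passed an adjusted p of 0.05 in limma, all of them higher: TNFRSF1B, TNFRSF11B, EDAR and TNFRSF21. That is 8.70% of the family against 4.77% of all genes, and for the direction against 2.74% of all genes called higher and 2.03% called lower. The members were chosen with earlier results of these data known, so these shares only describe them. None of the 15 ligands passed, and 7 had an unadjusted p under 0.05 (4 above and 3 below 0), which 3688 of all 19775 genes also had (1584 above and 2104 below 0). This depended on the fit. With an intensity trend and robust moderation the ligands TNFSF13 and LTB passed as higher and TNFSF9 and CD70 as lower, while 1822 of all genes passed. The median difference was 0.03 over the family and -0.02 over all genes, and 20 of the 46 genes differed by less than 0.1 in size.

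The arrays of the groups did not overlap for 25 of the 46 genes (54.3%), against 46.9% of all genes. In 17 of these genes the overexpressing arrays were the higher ones (37.0% of the family, 19.1% of all genes), and in 8 the lower ones (17.4% of the family, 27.8% of all genes). Tested by probe set, 5 of the 91 passed, all higher, or 5.49% against 1.97% of all probe sets. These belonged to TNFRSF11B (both of its probe sets), TNFRSF1B, EDAR and TNFRSF19.

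**Figure D1:**
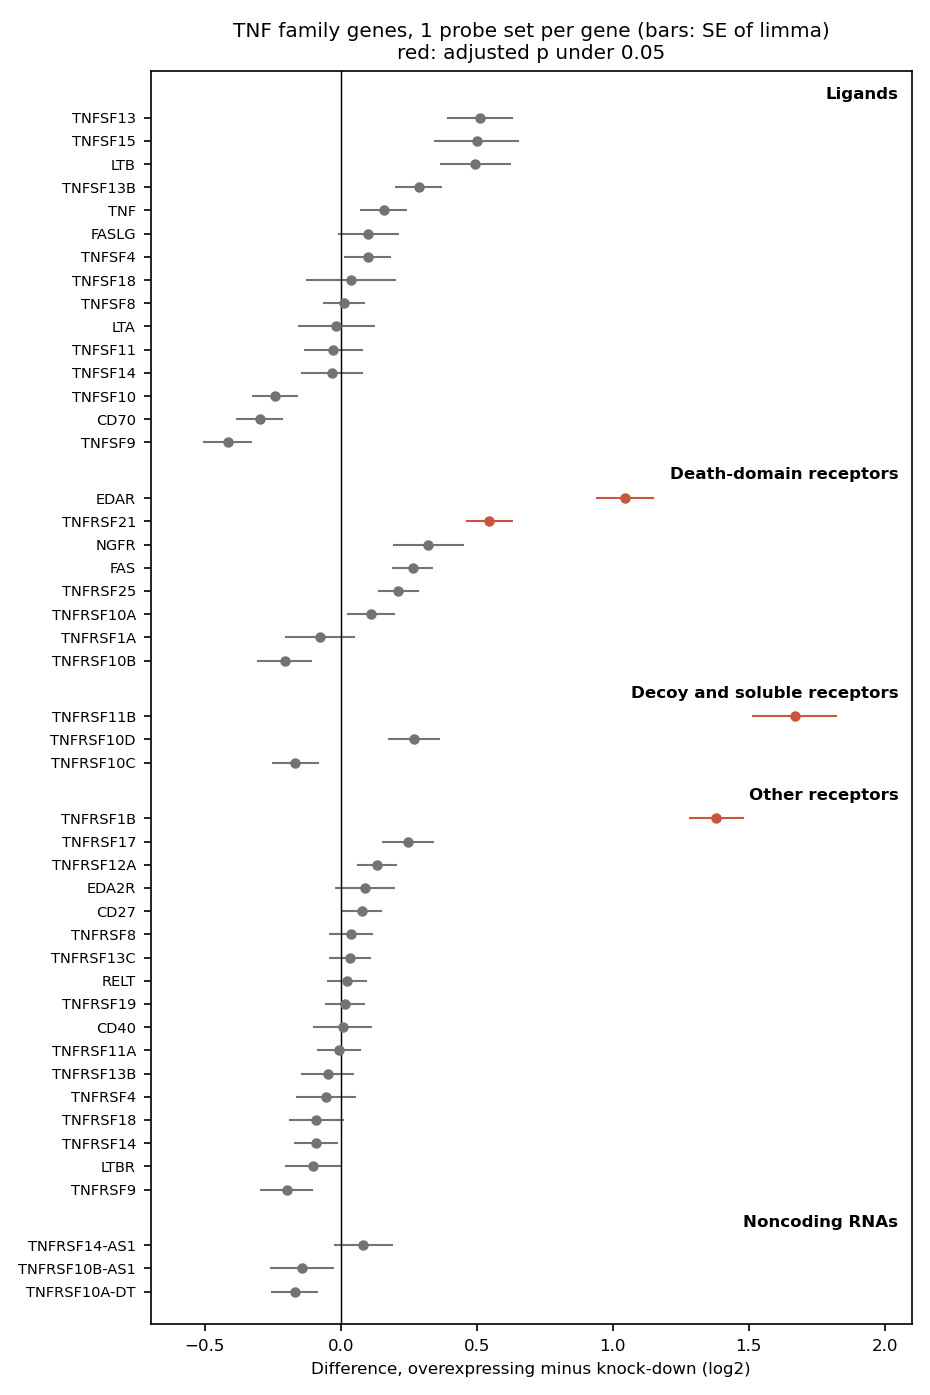
Difference between overexpressing and knock-down arrays for the 46 genes, grouped by role, with 1 probe set per gene; the x axis is the difference on the log2 scale, points are the estimates of the 2 against 2 comparison and bars are their SE in limma. Red points passed an adjusted p of 0.05: EDAR (1.05) and TNFRSF21 (0.55) among death-domain receptors, TNFRSF11B (1.67) among decoy receptors and TNFRSF1B (1.38) among other receptors.

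TNFRSF1B encodes TNF receptor 2, the TNF receptor without a death domain, which signals through TRAF2 and is best known from immune and endothelial cells. Its single probe set read 6.53 and 6.32 with knock-down and 7.74 and 7.88 with overexpression (log2). Both overexpressing arrays were higher than both knock-down arrays by more than 1 log2 unit. The rise was 2.60-fold, from 6.43 ± 0.15 to 7.81 ± 0.10 (SD, n = 2 per group; log2 difference 1.38 ± 0.10, SE, limma adjusted p = 0.0012). In the fits that omitted an array the difference ran from 1.27 to 1.49.

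The other TNF receptor and the ligands of TNF receptor 2 did not pass the test. TNFRSF1A, the death-domain receptor of TNF, read 9.20 and 9.43 in knock-down and 9.09 and 9.39 in overexpressing arrays. The groups overlapped, with a difference of -0.08 ± 0.13 (SE, limma adjusted p = 0.84). TNF itself lay below the array medians, at 4.97 and 4.93 against 5.19 and 5.03, a difference of 0.16 ± 0.09 (SE, limma adjusted p = 0.41). LTA, encoding lymphotoxin alpha, differed by -0.02 with overlapping groups.

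TNFRSF11B encodes osteoprotegerin, a secreted receptor that captures RANKL (TNFSF11) and can also bind TRAIL (TNFSF10), and it is known as a target of Wnt signalling in bone cells. Its brighter probe set read 4.66 and 4.72 in knock-down and 6.12 and 6.60 in overexpressing arrays. Its weaker probe set read 3.76 and 3.64 against 5.70 and 5.56. On both, the overexpressing arrays stood far above the knock-down arrays, which lay below the array medians. The rise on the brighter probe set was 3.18-fold, from 4.69 ± 0.05 to 6.36 ± 0.35 (SD, n = 2 per group; log2 difference 1.67 ± 0.16, SE, limma adjusted p = 0.0031), and the weaker one rose by 1.93 ± 0.10 (SE, limma adjusted p = 7.93e-04 over all probe sets). Whether the gene was detected at all with knock-down cannot be read from RMA values, which carry no detection call, so both folds depend on that low level.

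The call on TNFRSF11B was lost without either knock-down array (adjusted p = 0.081 without replicate 1 and 0.078 without replicate 2), with differences of 1.64 and 1.70. The partners of osteoprotegerin did not pass: RANKL (TNFSF11) differed by -0.03 and its signalling receptor RANK (TNFRSF11A) by -0.01. Both had overlapping groups and knock-down means below the array medians.

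EDAR encodes the death-domain receptor of ectodysplasin A, which guides the formation of hair, teeth and glands and is known to lie downstream of Wnt signalling in skin. Its only probe set read 6.04 and 6.29 in knock-down and 7.16 and 7.26 in overexpressing arrays. Each overexpressing array was above each knock-down array. EDAR rose 2.06-fold, from 6.17 ± 0.18 to 7.21 ± 0.07 (SD, n = 2 per group; log2 difference 1.05 ± 0.11, SE, limma adjusted p = 0.0043). It kept the call without knock-down replicate 2, but not without knock-down replicate 1 (adjusted p = 0.053), overexpressing replicate 1 (0.086) or overexpressing replicate 2 (0.1001).

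Genes that work with EDAR stood higher without passing the test. Its adaptor EDARADD read 4.75 and 4.49 in knock-down and 5.05 and 5.12 in overexpressing arrays, a difference of 0.46 ± 0.10 (SE, limma adjusted p = 0.068). Its ligand EDA, which is no member by the rule used, read 5.56 and 5.63 against 5.93 and 5.74 (difference 0.24, adjusted p = 0.24). EDA2R, the receptor of the second splice form of ectodysplasin A, differed by 0.09 with overlapping groups.

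TNFRSF21 encodes death receptor 6, a death-domain receptor studied mainly in neurons and lymphocytes. Its brighter probe set read 7.84 and 7.82 in knock-down and 8.30 and 8.46 in overexpressing arrays. The groups did not overlap on this probe set or on the weaker one. The rise was 1.46-fold, from 7.83 ± 0.01 to 8.38 ± 0.12 (SD, n = 2 per group; log2 difference 0.55 ± 0.09, SE, limma adjusted p = 0.022). The weaker probe set gave 0.58 ± 0.14 (SE), but neither passed when p-values were adjusted over all probe sets (limma adjusted p = 0.053 and 0.142). The call was also lost whichever array was left out, with an adjusted p of 0.093 to 0.210.

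TNFRSF19 encodes TROY, a receptor that marks stem cells of the intestine and is known as a Wnt target there. Its 3 probe sets gave different answers. The brightest read 5.94 and 5.94 in knock-down and 5.96 and 5.95 in overexpressing arrays, a difference of 0.01 ± 0.07 (SE, limma adjusted p = 0.96). Another read 3.77 and 3.68 against 4.43 and 4.67, which was a rise of 0.83 ± 0.11 (SE, limma adjusted p = 0.024 over all probe sets). The remaining one gave 0.21 ± 0.13 (SE, limma adjusted p = 0.54). The probe set that rose read low in both groups, and without any one array its adjusted p was 0.164 to 0.335 (difference 0.71 to 0.95). Averaged over the 3 probe sets, TNFRSF19 passed at 0.35 (adjusted p = 0.042).

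**Figure D2:**
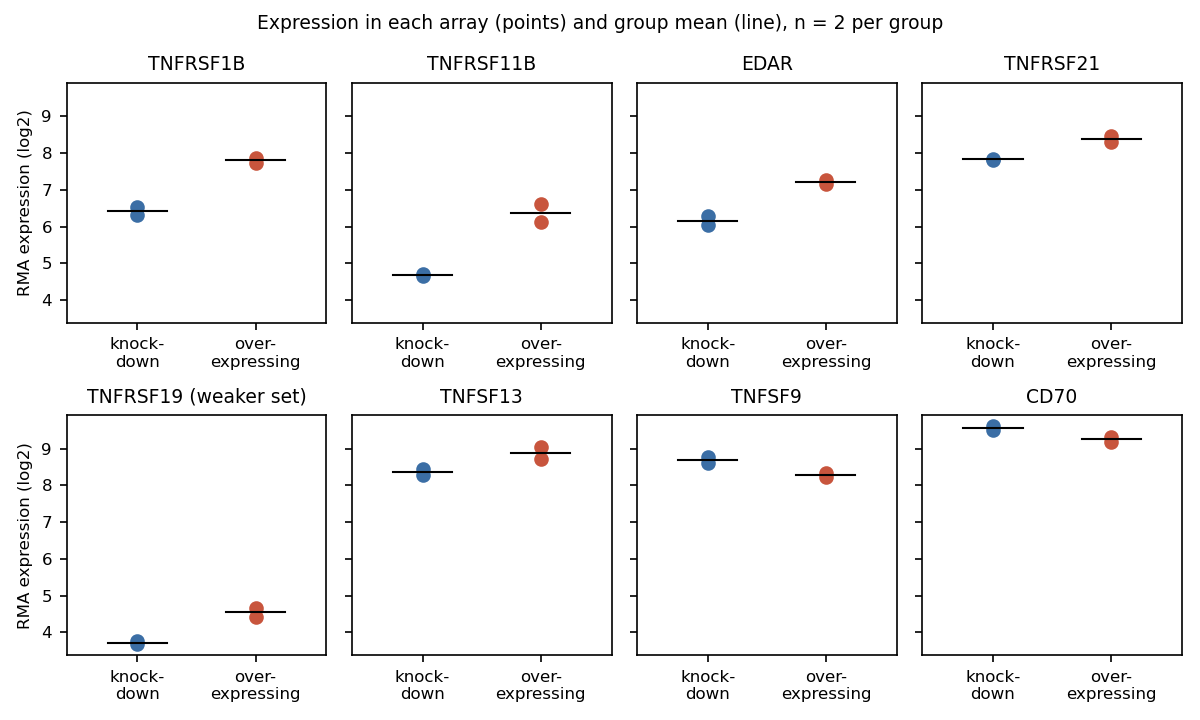
RMA expression (y axis, log2) in each of the 4 arrays for 8 family genes, with points for arrays and lines for group means, 2 arrays per group; TNFRSF19 is shown by the weaker probe set that passed, the others by their brightest. Groups did not overlap in any panel: TNFRSF1B, TNFRSF11B, EDAR and TNFRSF21 passed in the fit by gene, whereas TNFSF13, TNFSF9 and CD70 did not.

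The letters at the starts of TNFRSF1B and TNFRSF21 are shown because both were called higher, and those of TNFRSF19 because its probe sets differed and the table gives 2 starts for it. The other called genes, TNFRSF11B and EDAR, are not shown. RefSeq (GRCh38.p14) windows from 250 bases before to 50 bases after a start were found for 30 of the 46 genes, with 41 windows in all. Capitals mark the GC box GGGCGG, a motif of Sp-type factors, on either strand. The TNFRSF1B window lies at chr1:12166741-12167040 (plus strand), that of TNFRSF21 at chr6:47309856-47310155 (minus strand), and those of TNFRSF19 at chr13:23570162-23570461 and chr13:23579110-23579409 (plus strand). Sequences are written 5′ to 3′ along the gene.
TNFRSF1B: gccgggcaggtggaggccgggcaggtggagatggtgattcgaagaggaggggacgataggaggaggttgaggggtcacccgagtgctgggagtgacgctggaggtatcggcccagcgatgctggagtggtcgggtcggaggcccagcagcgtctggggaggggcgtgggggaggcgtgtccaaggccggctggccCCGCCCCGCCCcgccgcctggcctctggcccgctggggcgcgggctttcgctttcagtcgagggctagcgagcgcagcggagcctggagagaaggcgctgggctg
TNFRSF21: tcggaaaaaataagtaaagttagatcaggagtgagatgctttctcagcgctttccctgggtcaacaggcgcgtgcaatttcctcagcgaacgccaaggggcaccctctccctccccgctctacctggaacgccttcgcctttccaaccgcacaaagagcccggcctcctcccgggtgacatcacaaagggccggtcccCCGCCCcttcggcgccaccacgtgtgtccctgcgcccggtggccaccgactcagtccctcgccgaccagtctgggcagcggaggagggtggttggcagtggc
TNFRSF19, upstream start: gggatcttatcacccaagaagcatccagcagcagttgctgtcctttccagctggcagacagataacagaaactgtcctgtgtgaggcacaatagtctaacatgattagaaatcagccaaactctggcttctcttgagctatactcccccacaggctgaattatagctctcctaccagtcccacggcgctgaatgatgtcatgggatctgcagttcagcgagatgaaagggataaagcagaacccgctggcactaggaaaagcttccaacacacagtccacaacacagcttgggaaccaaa
TNFRSF19, downstream start: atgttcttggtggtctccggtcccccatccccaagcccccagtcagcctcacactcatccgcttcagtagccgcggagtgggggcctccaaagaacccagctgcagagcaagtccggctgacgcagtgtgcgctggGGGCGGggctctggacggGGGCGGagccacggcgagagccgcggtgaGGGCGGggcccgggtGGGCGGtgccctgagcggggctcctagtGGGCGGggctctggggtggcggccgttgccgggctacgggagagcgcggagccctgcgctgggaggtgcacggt

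The windows of TNFRSF1B and the downstream start of TNFRSF19 were rich in G and C (72.0% and 72.7%, against a median of 58.7% over all windows), and that of TNFRSF21 was at 63.3%. The upstream start of TNFRSF19 was at 49.0% and held no GC box, whereas the downstream start held 5, TNFRSF1B held 2 that overlap each other by 1 base and TNFRSF21 held 1. Of all 35116 windows of this length, 45.0% held a GC box on either strand, against 61.0% of the 41 family windows. A further 4 motifs were searched on both strands: CTTTGA, the core of many TCF/LEF sites; GGNNTTTCC, part of many NF-kB sites; TAATTA, a homeodomain core; and TGANTCA, an AP-1 site. They are in 12.9%, 6.26%, 4.84% and 7.71% of all windows and in 24.4%, 14.6%, 4.88% and 22.0% of the family windows. None of these 4 was in the windows printed here, which says only that these letters are not in these 300 bases. A match is likewise a description and not a bound site.

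Of the 8 death-domain receptors, EDAR and TNFRSF21 rose, none fell and 6 did not pass. The share that passed was 25%, against 4.77% of all genes. By gene, 6 of the 8 were above 0, with a median of 0.24, against 8613 of 19775 and a median of -0.02 over all genes. An unadjusted p under 0.05 was found for 5 of the 8, all above 0, against 1584 of the 19775 genes above 0 and 2104 below. Of their 22 probe sets, among which FAS and TNFRSF25 count 5 times each, 19 were above 0, against 24596 of 54613. Only the EDAR probe set passed (4.55%, against 1.97% of all probe sets). FAS, the receptor of FAS ligand and a p53 target, read 7.48 and 7.41 in knock-down and 7.69 and 7.73 in overexpressing arrays. The groups did not overlap, but the difference of 0.26 ± 0.08 (SE) did not pass (limma adjusted p = 0.13). All 5 probe sets of FAS were above 0, from 0.14 to 0.43, and 3 had an unadjusted p under 0.05. TNFRSF25, a death receptor of T cells, had all 5 of its probe sets above 0 as well, from 0.08 to 0.24. NGFR, the low-affinity neurotrophin receptor, differed by 0.32 on a probe set below the array medians (adjusted p = 0.26).

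The receptors of TRAIL are neighbours in a cluster of 4 genes. None of them passed, and their differences had both signs. TNFRSF10A, encoding death receptor 4, read 7.97 and 7.86 in knock-down and 7.96 and 8.10 in overexpressing arrays on its brightest probe set, with overlapping groups (difference 0.11, limma adjusted p = 0.59). Its weaker probe sets gave 0.45 and 0.40 with groups apart (limma adjusted p = 0.185 and 0.316 over all probe sets). TNFRSF10B, encoding death receptor 5, read 9.65 and 9.85 against 9.47 and 9.62, a difference of -0.21 ± 0.10 (SE, limma adjusted p = 0.35), and 2 of its 4 probe sets were above 0.

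TRAIL also has membrane decoys, TNFRSF10C and TNFRSF10D, and their differences had opposite signs. TNFRSF10C read 6.54 and 6.42 in knock-down and 6.38 and 6.25 in overexpressing arrays (difference -0.17 ± 0.09, SE, limma adjusted p = 0.39). All 4 of its probe sets lay below 0, from -0.32 to -0.04. TNFRSF10D read 6.62 and 6.67 against 6.81 and 7.02 (difference 0.27 ± 0.09, SE, limma adjusted p = 0.20), and its weaker probe set was at 0.002. The groups did not overlap on the brighter probe set of either decoy. The ligand TRAIL (TNFSF10) read 6.003 and 6.05 in knock-down and 5.86 and 5.72 in overexpressing arrays. All 3 of its probe sets were below 0, from -0.29 to -0.15, with 2 at an unadjusted p under 0.05, and none passed (adjusted p = 0.19 for the brightest).

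The lowest differences of the family belonged to ligands. TNFSF9, encoding the co-stimulatory ligand 4-1BBL, read 8.62 and 8.79 in knock-down and 8.24 and 8.33 in overexpressing arrays. The overexpressing arrays were both lower, but the difference of -0.42 ± 0.09 (SE) just missed the threshold (limma adjusted p = 0.060). The difference was past the threshold after a second quantile normalization, with dim genes left out and with an intensity trend in the variances. It was also past it with the mean of probe sets of each gene, which leaves the single TNFSF9 probe set unchanged. It was not past it with arrays centred on their medians or with the replicate number as a block. CD70, the ligand of CD27, read 9.50 and 9.61 against 9.19 and 9.32 (difference -0.30 ± 0.09, SE, limma adjusted p = 0.13). CD70 passed with an intensity trend in the variances (limma adjusted p = 0.040) and in no other fit that kept all arrays. TNFSF9, CD70 and TNFSF14 follow each other on chromosome 19 with no other coding gene between them in RefSeq, and TNFSF14, which encodes LIGHT, differed by -0.03 with overlapping groups.

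On the other side, TNFSF13, encoding the B cell factor APRIL, read 8.29 and 8.44 in knock-down and 8.72 and 9.03 in overexpressing arrays. Its difference of 0.51 ± 0.12 (SE) did not pass (limma adjusted p = 0.082), and it has a single probe set that names it alone. It passed with an intensity trend in the variances (limma adjusted p = 0.014), after a second quantile normalization (0.036) and with dim genes left out (0.040). It did not pass with the replicate number as a block (0.069), with the mean of probe sets (0.062) or with centred arrays (0.080). Without single arrays TNFSF13 differed by 0.36 to 0.67. A further 3 probe sets name it together with the TNFSF12-TNFSF13 readthrough, and these gave 0.37, 0.47 and 0.50 with groups apart, none of them passing. One that also names TNFSF12 gave 0.03 with overlapping groups. TNFSF13B, encoding the related B cell factor BAFF, differed by 0.29 on its brighter probe set (adjusted p = 0.14) and by -0.07 on the other. TNFSF15, encoding TL1A, a cytokine of mucosal inflammation, gave 0.50 and 0.46 on its probe sets (adjusted p = 0.15 for the brighter), and its receptor TNFRSF25 differed by 0.21. LTB, encoding lymphotoxin beta, gave 0.49 on its brighter probe set and -0.10 on the other, and its receptor LTBR differed by -0.10 ± 0.10 (SE, limma adjusted p = 0.69), at 9.31 and 9.36 against 9.11 and 9.36. FASLG, TNFSF4, TNFSF8, TNFSF11 and TNFSF18 lay between -0.03 and 0.10, all with overlapping groups.

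Among the 17 receptors without a death domain that are not decoys, TNFRSF1B rose, none fell and 16 did not pass. The share that passed, 5.88%, was near the 4.77% of all genes. TNFRSF12A, encoding the TWEAK receptor FN14, was bright, at 9.88 and 9.89 in knock-down and 10.04 and 9.99 in overexpressing arrays. The overexpressing arrays were both higher, by a difference of only 0.13 ± 0.07 (SE, limma adjusted p = 0.42). CD40, the receptor of CD40 ligand on B cells and antigen-presenting cells, read 8.46 and 8.64 against 8.67 and 8.44 and differed by 0.01. TNFRSF9, the receptor of the 4-1BB ligand, differed by -0.20 and TNFRSF17, the plasma cell receptor BCMA, by 0.25 (adjusted p = 0.36 and 0.24), while the other members of this class lay between -0.10 (LTBR) and 0.09 (EDA2R). The 3 noncoding RNAs, TNFRSF10A-DT, TNFRSF10B-AS1 and TNFRSF14-AS1, lay between -0.17 and 0.08 and did not pass (0 of 3 in limma, 0 at an unadjusted p under 0.05).

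Of the 46 genes, 25 had more than 1 probe set. All probe sets of a gene lay above 0 in 9 of them and below 0 in 7, and 9 had probe sets on both sides. TNFRSF11B, TNFRSF21, TNFSF15, FAS and TNFRSF25 were among those with every probe set above 0, and TNFSF10, TNFRSF10C, TNFRSF11A, TNFRSF18, TNFSF11 and TNFSF14 among those with every one below. TNFRSF6B, a soluble decoy of FAS ligand, and TNFSF12, encoding TWEAK, were measured here only on probe sets that also name a readthrough transcript. These are no members by the rule, and they gave 0.46 (TNFRSF6B with RTEL1-TNFRSF6B) and 0.47 (TNFSF12 with TNFSF12-TNFSF13) without passing. Both probe sets that name TNFRSF10C with a noncoding gene lay below 0, at -0.38 and -0.23, as its own did.

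**Figure D3:**
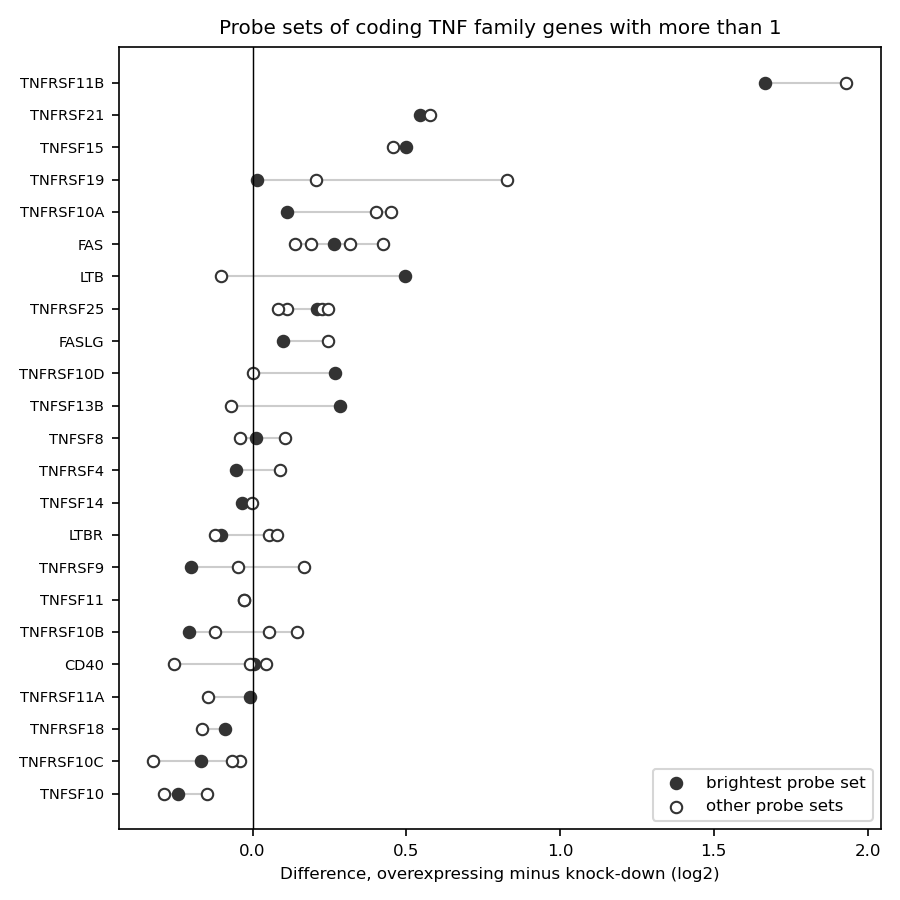
Difference between overexpressing and knock-down arrays (x axis, log2) for each probe set of the coding family genes with more than 1 probe set; filled points are the brightest probe set of a gene, open points the others, and grey lines join them. The pair of TNFRSF11B lay together at 1.67 and 1.93, whereas the 3 probe sets of TNFRSF19 ran from 0.01 to 0.83 and the pair of LTB lay on both sides of 0.

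Family genes formed 14 neighbouring pairs with at most 2 coding genes between them in RefSeq, and in 11 pairs both differences had the same sign, which was not tested because pairs share genes. Sizes were alike in some pairs and not in others. TNFSF9 and CD70 (-0.42 and -0.30), TNFRSF10B and TNFRSF10C (-0.21 and -0.17), TNFRSF1A and LTBR (-0.08 and -0.10) and TNFRSF18 and TNFRSF4 (-0.09 and -0.05) were alike, with no gene of these past the threshold. TNFRSF1B and TNFRSF8 are consecutive coding genes on chromosome 1, and TNFRSF8, encoding CD30, differed by 0.04 beside the 1.38 of TNFRSF1B. LTA, TNF and LTB are consecutive on chromosome 6 and differed by -0.02, 0.16 and 0.49. FASLG, TNFSF18 and TNFSF4 on chromosome 1 differed by 0.10, 0.04 and 0.10, and TNFSF15 and its neighbour TNFSF8 on chromosome 9 by 0.50 and 0.01.

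At and downstream of the receptors, the share that passed was near that of all genes in the adaptor list, the death arm and the NF-kB and MAP kinase arm. The share was larger among genes that TNF is known to induce. These lists were chosen with earlier results of these data known, so their shares only describe them. The list of 24 genes that act at the receptors held adaptors and regulators, and also the ligand EDA. None of the 24 rose and 1 fell: TRAF3IP2, encoding the adaptor ACT1 of the IL-17 receptor, which fell by 0.43 (limma adjusted p = 0.044). That is 4.17%, near the 4.77% of all genes. Their median was -0.10, their median difference in size 0.13 against 0.09 over all genes, and the groups were apart in 62.5% against 46.9%. TRADD, the death-domain adaptor of TNF receptor 1, differed by -0.22 (adjusted p = 0.21), FADD by -0.04 and TNFAIP3, the NF-kB inhibitor A20, by 0.05. Of 15 genes of the death arm, none rose and 1 fell (6.67%), namely MLKL, the effector of necroptosis, which read 9.37 and 9.35 in knock-down and 8.82 and 9.003 in overexpressing arrays (fell by 0.45, limma adjusted p = 0.049). CASP8, the initiator caspase of death receptors, differed by -0.18 and its inhibitor CFLAR by 0.02.

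Of 21 genes of the NF-kB and MAP kinase arm, JUN rose by 0.56 (limma adjusted p = 0.011) and none fell (4.76% passed), with a median of -0.06. They comprise kinases and their partner proteins, transcription factors and NF-kB inhibitors. NFKBIA, NFKB2 and RELB among them also stand in the list of TNF-induced genes, as do TRAF1, TNIP1 and TNFAIP3 of the adaptor list. JUN has 4 probe sets and did not pass with their mean. Of 29 genes known to be induced by TNF through NF-kB, 7 rose and none fell, or 24.1% against 4.77% of all genes. Their median was 0.19 against -0.02. As this list was chosen with earlier results known, the larger share is a description and not a test. The 7 were IER3 (1.57), the prostaglandin synthase gene PTGS2 (1.54), the chemokine genes CCL20 (1.17), CXCL1 (0.92) and CXCL2 (0.68), the cytokine gene IL6 (1.02) and NFKBIZ (0.63). The classical NF-kB feedback genes gave smaller values: NFKBIA differed by 0.31 (limma adjusted p = 0.14), TNFAIP3 by 0.05, NFKB2 by 0.04 and RELB by -0.06. Of the other induced genes that did not pass, SOD2 differed by -0.40 (limma adjusted p = 0.095), CCL5 by 0.67 (0.068) and CXCL3 by 0.35 (0.074). In the list of 29, 22 genes lay above 0 and 7 below. IER3, PTGS2 and IL6 passed without any one array. CCL20 did not without either overexpressing array, CXCL1 passed only without overexpressing replicate 2, and TRAF3IP2, MLKL, JUN, CXCL2 and NFKBIZ passed in none of these fits, which left 3 to 4 genes of the lists in place of 10.

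**Figure D4:**
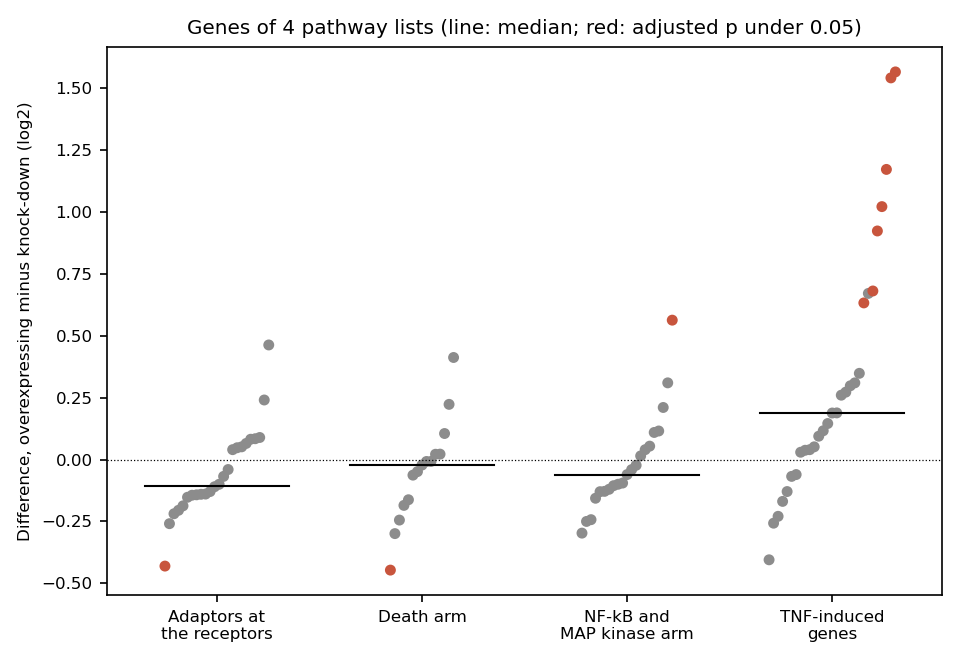
Difference between overexpressing and knock-down arrays (y axis, log2) for the genes of 4 lists from the TNF pathway, each point being 1 gene, sorted within its list; lines are list medians and red points passed an adjusted p of 0.05. The medians were -0.10 (adaptors), -0.02 (death arm), -0.06 (NF-kB and MAP kinase arm) and 0.19 (TNF-induced genes), and 7 genes of the last list passed.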

How the data were processed

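RNA of 4 samples was hybridised to Affymetrix arrays. The deposited table holds log2 values for 54675 probe sets, made by the authors; per the submitters' processing notes they used RMA and the affy package, whose version is not stated there. RMA subtracts background and makes array distributions alike, so a global shift would be removed. Values were used as deposited. Symbols came from the platform annotation; 41091 probe sets had 1 symbol. Controls (62) and, by gene, probe sets with several symbols (1801) or none listed (11721) were left out. For each of 19775 genes the probe set of highest mean across the 4 arrays was kept, a choice blind to the groups. Groups were compared with limma (version 3.58.1, R 4.3.3; lmFit, eBayes), in two-sided tests at a Benjamini-Hochberg adjusted p of 0.05, taken over all genes or, separately, over 54613 probe sets. In the fit by gene, limma drew the variance of each gene towards that of all genes, with 4.17 prior and 2 residual degrees of freedom. The procedure was tested on simulated data. An exact permutation test of 2 against 2 arrays cannot go below 0.333, and the number of arrays limits the precision.

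The members and lists were chosen with earlier results of these data known. Values in each array are given for members past the threshold in either fit, the 2 of highest mean and the 1 of largest difference in each role class, and 10 members chosen whatever their result (TNF, FAS, TNFSF10, TNFRSF1A, TNFRSF10A, TNFRSF10B, TNFRSF12A, TNFRSF19, TNFRSF21 and LTBR); TNFSF9, CD40, EDARADD and EDA were added after their values were seen. From each pathway list up to 6 genes past the threshold were named by size of difference; NFKBIZ and list genes that did not pass were chosen after their values were seen. Levels of different probe sets are not compared. The tests were repeated without each array, with the replicate number as a block, with centred or again quantile-normalized arrays, with robust moderation and an intensity trend, without dim features, with the mean of probe sets, and at 0.01 and 0.1.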

Additional observations from a re-analysis of the deposited data

How the results depend on the processing

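With an intensity trend and robust moderation, 8 family genes passed in place of 4 (6 higher, 2 lower), 8 probe sets in place of 5 and 17 pathway genes in place of 10. Of all genes 1822 then passed in place of 944. The family genes added were the ligands TNFSF13, LTB, TNFSF9 and CD70. Leaving out features below the median of all probe sets gave 3 family probe sets past the threshold, those of TNFRSF1B and EDAR and, in addition, the brighter one of TNFRSF21, and by gene 5, with TNFSF13 and TNFSF9 in and TNFRSF11B left out as dim; fewer features were then tested. At an adjusted p of 0.01, 3 probe sets and 5 pathway genes passed and 377 of all genes, and at 0.1, 16 pathway genes and 1561 of all genes. With the mean of probe sets of each gene, 6 family genes, 9 pathway genes and 1007 of all genes passed. JUN, CXCL2 and TRAF3IP2 then missed the threshold, whereas CCL5 and EDARADD passed. Leaving out 1 array left 1 to 2 family genes, 3 to 4 pathway genes and 172 to 237 of all genes; by probe set 0 to 0 family members passed in limma, with 13 to 19 at an unadjusted p under 0.05. In such fits the lone array of a group is assumed to vary like the others. Except where stated, the cause of these changes was not tested.

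The replicate numbers are shared between groups, but the labels do not say that they pair samples, and with 2 pairs this could not be decided from the data (correlation of deviations 0.15 over genes). With the number as a replicate block, 3 family genes, 4 probe sets and 7 pathway genes passed, and 520 of all genes. TNFRSF21 then missed the threshold (limma adjusted p = 0.066), as did the TNFRSF19 probe set (0.105) and, of the pathway genes, TRAF3IP2, MLKL and CXCL2. This left 0 of 24 genes of the adaptor list and 0 of 15 death genes past the threshold in limma (6 and 5 at an unadjusted p under 0.05).

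TNFRSF19, at 0.01 on its brightest probe set, was at -0.00017 with arrays centred on their medians. Without single arrays LTBR ran from -0.23 to 0.020 and TNFRSF1A from -0.23 to 0.073, being at 0.036 without knock-down replicate 2. Of the members chosen by rule for values in each array, no other changed sign under the alternatives run.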
